A study of Mus musculus with 12 samples.

Results

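The miR-15, miR-16, miR-195 and miR-497 family was represented by 9 mature miRNAs among the 1966 rows of a small RNA-seq count table. The 9 were taken by name: mmu-miR-15a-5p, mmu-miR-15a-3p, mmu-miR-15b-5p, mmu-miR-15b-3p, mmu-miR-16-5p, mmu-miR-16-1-3p, mmu-miR-195a-5p, mmu-miR-195a-3p and mmu-miR-497a-5p, written below without the species prefix. The table covered the quadriceps, a thigh muscle, of wild-type C57BL/6J mice that carried no transgene or deletion and received no treatment. It held 12 libraries, 3 for each of postnatal days 1, 5, 14 and 90 (P1, P5, P14 and P90). The methods give as many mice per age as there are libraries and mention no pooling. Library totals ranged from 20363495 to 53126984 reads assigned to miRNAs. The question put to these libraries was how the locus of miR-195a and miR-497a moved over postnatal muscle growth beside the loci of miR-15 and miR-16.

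A miRNA guides the silencing complex to messenger RNAs through its seed, the stretch near its 5′ end that pairs with the target. Members of the miR-15 family carry one seed on their 5p arms, so they can bind overlapping sets of targets, among them cyclins, other cell cycle genes and the survival gene Bcl2. In heart muscle miR-195 is known to act against cardiomyocyte proliferation after birth, and in muscle stem cells miR-195 and miR-497 have been linked to quiescence. The 3p arms of the same hairpins are usually the less abundant passenger strands.

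The mature sequences show what the 5p arms share and where they differ. They are printed from RefSeq on the GRCm38.p6 assembly, 5′ to 3′, with the seed (bases 2 to 8) in capitals. All 9 members matched a RefSeq entry.
miR-195a-5p: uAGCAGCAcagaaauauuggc
miR-497a-5p: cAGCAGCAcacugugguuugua
miR-16-5p: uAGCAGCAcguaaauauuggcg
miR-15a-5p: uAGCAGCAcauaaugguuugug
miR-15b-5p: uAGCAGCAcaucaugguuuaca

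The 5 arms had the same seed and differed in the bases after it. Counted from 1 at the 5′ end, miR-16-5p and miR-195a-5p were identical at 19 of 21 positions, with the substitutions G10A and U11G from the first to the second. By contrast miR-195a-5p and miR-497a-5p, which come from the same locus, matched at 12 of 21 positions. Over the whole sequence, seed included, miR-497a-5p was closer to miR-15a-5p, with 17 of 22 positions identical. The paralogs miR-15a-5p and miR-15b-5p matched at 18 of 22.

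The 4 passenger arms are shown because each one has a seed of its own, so none of them belongs to the seed family of the 5p arms.
miR-195a-3p: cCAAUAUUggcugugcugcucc
miR-16-1-3p: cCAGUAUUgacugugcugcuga
miR-15a-3p: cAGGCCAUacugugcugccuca
miR-15b-3p: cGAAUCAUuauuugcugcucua

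The members come from 6 hairpins at 3 loci, and the positions are on GRCm38.p6. The hairpins of miR-497a (chr11:70234717-70234800) and miR-195a (chr11:70235042-70235135) lie 241 bp apart on the plus strand. Apart from miRNA genes, they fall inside no gene of the RefSeq table used. The miR-497a hairpin lies within that of miR-497b, annotated on the minus strand. The hairpins of miR-15a (chr14:61632027-61632110) and miR-16-1 (chr14:61631880-61631972) lie 54 bp apart on the minus strand within Dleu2, a long noncoding RNA gene on the same strand, in an exon of at least 1 of its GENCODE transcripts. Those of miR-15b (chr3:69009772-69009835) and miR-16-2 (chr3:69009902-69009996) lie 66 bp apart on the plus strand in an intron of Smc4, which encodes a condensin subunit. The mature miR-16-5p made by the hairpins on chromosomes 3 and 14 is the same sequence, so its reads could not be assigned to one of these loci.

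Levels are given as normalized CPM (the read count over the library total, times 1e6), scaled by the trimmed mean of M values (TMM) in edgeR. Mature lengths were 21 or 22 nt, so no correction for length was made between members. Differences between ages are log2 fold changes (log2FC) from edgeR's quasi-likelihood test, with Padj the p-value adjusted by Benjamini-Hochberg over all 809 miRNAs tested and 0.05 as the threshold. All 9 members passed the filter on low counts. Fewer cells of a type and less RNA per cell cannot be told apart in RNA from whole muscle.

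Across the 4 ages, 8 of the 9 members differed, beside 72.4% of all miRNAs tested. The exception was miR-15a-3p (edgeR Padj = 0.202), which had between 2 and 44 reads per library. Under library totals alone all 9 differed. The plot of 5p levels by age gives the libraries of the 5 arms that share the seed.

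**Figure D1:**
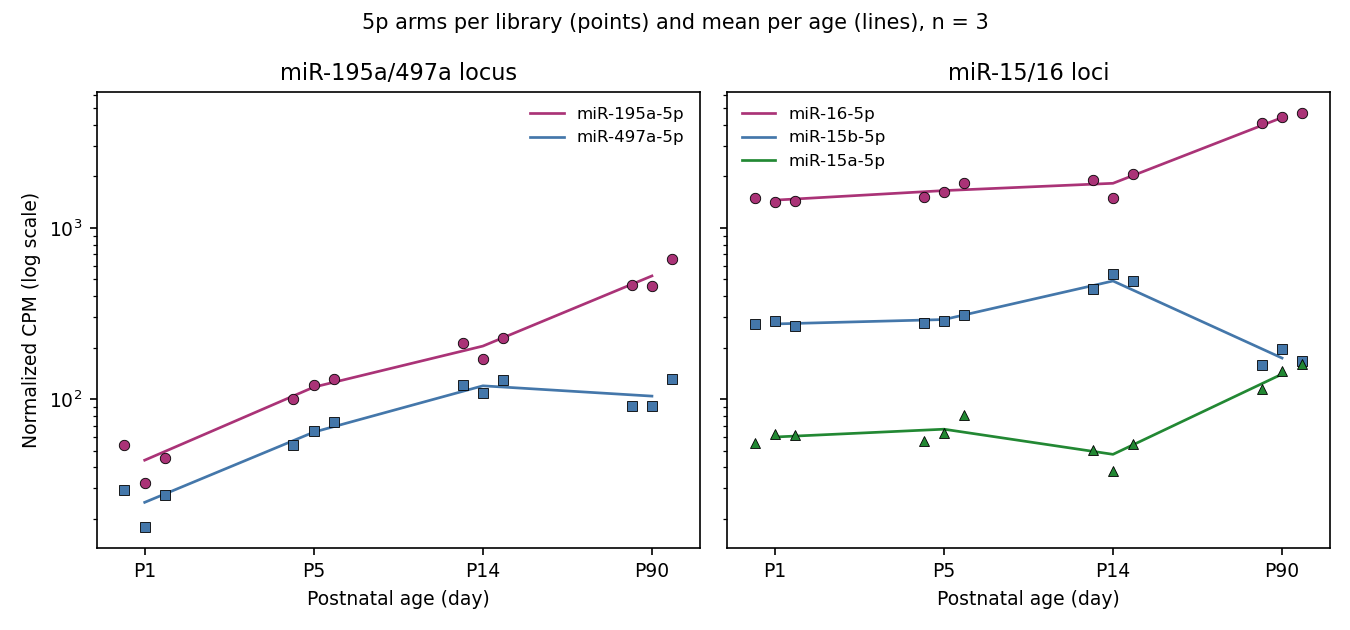
Normalized CPM (log axis) of the 5 arms of the family that share the seed, plotted for each of the 3 libraries at P1, P5, P14 and P90, with lines through the age means. miR-16-5p stayed the highest at every age, while miR-195a-5p moved from below miR-15a-5p at P1 to above miR-15b-5p at P90.

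miR-195a-5p, the leading arm of its hairpin, had the largest rise of any member between P1 and P90. At P1 its level was 54.0, 32.4 and 45.3 normalized CPM in replicates 1, 2 and 3, and at P5 it was 100.1, 120.8 and 131.2. At P14 the libraries held 213.4, 171.4 and 227.0 normalized CPM, and at P90 they held 462.8, 455.1 and 655.0. Each age lay wholly above the one before it, with no overlap between neighbouring ages. The mean rose from 43.9 ± 10.8 at P1 to 524 ± 113 at P90 (SD, n = 3), an 11.9-fold difference (log2FC 3.58, SE 0.22, edgeR Padj = 6.19e-10). All 3 steps passed the test, with log2FC 1.42 from P1 to P5, 0.80 from P5 to P14 and 1.36 from P14 to P90. With the trend of each library's counts on GC content removed the last step was 0.70. With scaling by library totals alone it turned to -0.90, whereas P90 against P1 stayed positive at 1.29.

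miR-497a-5p, transcribed from the same stretch of chromosome 11, followed miR-195a-5p up to P14 and not beyond. Its level was 29.3, 17.8 and 27.5 normalized CPM in the P1 libraries and 54.0, 64.8 and 73.3 in those of P5. It then reached 121.0, 109.1 and 128.3 at P14, and stood at 90.7, 90.7 and 130.6 at P90. The first 3 ages did not overlap, while P90 overlapped P14. The steps from P1 to P5 (log2FC 1.36, SE 0.21, edgeR Padj = 0.00222) and from P5 to P14 (log2FC 0.90, SE 0.21, edgeR Padj = 0.00245) passed the test. From P14 to P90 the log2FC was -0.20 (SE 0.21, edgeR Padj = 0.423), and its sign depended on the scaling, with 0.16 under relative log expression (RLE) factors and -2.47 under library totals alone. P90 was 4.18-fold above P1 (log2FC 2.06, SE 0.22, edgeR Padj = 3.73e-07), a direction that turned to -0.23 under library totals alone.

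The passenger arm miR-195a-3p rose with its partner to P14 and was lower at P90 with TMM, a fall that several alternatives did not keep. Levels were 5.16, 2.38 and 4.64 normalized CPM at P1, and 9.52, 9.25 and 10.8 at P5. They were 19.6, 17.9 and 19.8 at P14, and 10.8, 9.07 and 13.3 at P90. No P90 library reached the P14 range, although all 3 exceeded those of P1. The rise from P1 to P5 (log2FC 1.28, SE 0.25, edgeR Padj = 0.0118) no longer passed without replicate 3 of P5, where the log2FC was 1.20 and Padj 0.0621. The step from P5 to P14 was 0.95, and the fall from P14 to P90 was -0.79 (SE 0.25, edgeR Padj = 0.0129). That fall did not pass without replicate 2 of P5 (-0.56, edgeR Padj = 0.0722) or replicate 2 of P90 (-0.65, edgeR Padj = 0.0610), nor under RLE factors (-0.43). It was also lost with the GC trend removed (-0.37, edgeR Padj = 0.222), with DESeq2 (-0.43, Padj = 0.128) and in a fit of P14 and P90 alone (-0.49, edgeR Padj = 0.0611). Under upper-quartile factors it turned to 0.77.

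miR-16-5p, the most abundant member and a miRNA known to be plentiful in blood cells, had its largest step after P14. Its level was 1497, 1427 and 1437 normalized CPM at P1, and 1512, 1627 and 1820 at P5. At P14 it was 1907, 1505 and 2059, and at P90 it was 4104, 4433 and 4715. Every P90 library lay above every younger one, while P5 and P14 overlapped. The early steps had log2FC 0.19 and 0.14 and did not pass the test (edgeR Padj = 0.591 and 0.428). The step from P5 to P14 did pass under library totals alone (0.40, edgeR Padj = 0.0459), under upper-quartile factors (0.42, edgeR Padj = 0.0126) and with the GC trend removed (0.33, edgeR Padj = 0.0394). From P14 to P90 the log2FC was 1.28 (SE 0.13, edgeR Padj = 5.40e-07), against 0.85 with the GC trend removed and -0.96 under library totals alone. P90 was 3.04-fold above P1 (log2FC 1.60, SE 0.14), against -0.67 under library totals alone.

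miR-15a-5p, the partner of miR-16-1 in Dleu2, was lowest at P14 and highest at P90. The libraries held 55.2, 62.8 and 61.9 normalized CPM at P1, and 56.5, 63.2 and 80.2 at P5. They held 50.3, 37.9 and 54.3 at P14, and 113.9, 146.2 and 159.7 at P90. P14 lay below and P90 above all other libraries, while P1 and P5 overlapped. The rise from P14 to P90 had log2FC 1.56 (SE 0.19, edgeR Padj = 3.07e-06), against 0.71 with the GC trend removed and -0.69 under library totals alone. The lower level at P14 than at P5 (log2FC -0.49, SE 0.19, edgeR Padj = 0.0452) did not pass without any one of replicate 3 of P1 (-0.47), replicates 2 and 3 of P5 (-0.52 and -0.37) or replicates 1 and 2 of P14 (-0.56 and -0.38). With the trend on GC content removed that difference was -0.11.

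miR-15b-5p, hosted by Smc4, was highest at P14 and lowest at P90. Its level was 273.7, 284.3 and 266.1 normalized CPM at P1, and 277.6, 286.0 and 310.8 at P5. It was 439.5, 538.5 and 491.6 at P14, and 158.8, 195.3 and 166.5 at P90. No P14 or P90 library overlapped another age. The rise to P14 had log2FC 0.75 (SE 0.13, edgeR Padj = 0.000298), or 1.14 with the GC trend removed, and the fall to P90 had -1.50 (SE 0.14, edgeR Padj = 8.56e-08), against -2.36 with the GC trend removed and 0.08 under upper-quartile factors. P90 against P1 was -0.66 (SE 0.13, edgeR Padj = 0.000381), -1.16 with the GC trend removed, -0.32 under RLE factors (edgeR Padj = 0.0507) and 1.23 under upper-quartile factors.

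Its passenger arm miR-15b-3p fell the most of the 9 members from P1 to P90. The levels were 22.9, 21.5 and 22.1 normalized CPM at P1, and 22.5, 21.9 and 23.7 at P5. They were 13.5, 13.3 and 12.9 at P14, and 3.27, 3.50 and 2.67 at P90. From P5 onward each age lay below the one before. The fall from P5 to P14 was -0.78 (SE 0.16, edgeR Padj = 0.000854), or -0.20 with the GC trend removed. From P14 to P90 it was -2.07, or -3.35 with the GC trend removed, and P90 was 7.00-fold below P1 (log2FC -2.81, SE 0.17, edgeR Padj = 5.63e-10), with the same sign under every scaling tried.

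The remaining passenger arms were scarce. miR-16-1-3p had 1.93, 3.39 and 4.05 normalized CPM at P1 and 2.00, 3.45 and 2.89 at P5, then 0.799, 0.961 and 0.979 at P14 and 0.654, 2.12 and 1.75 at P90. P14 lay below P5 (log2FC -1.60, SE 0.41, edgeR Padj = 0.00520), whereas P90 overlapped both P1 and P14. P90 against P1 gave -1.05 (SE 0.42, edgeR Padj = 0.0366), which did not pass without replicate 2 or 3 of P1 (-1.03 and -0.73), replicate 2 of P5 (-0.79) or replicate 1 or 3 of P90 (-0.71 and -1.15). It was also lost under RLE factors (-0.70, edgeR Padj = 0.156), with DESeq2 (-0.70, Padj = 0.150) and in a fit of P1 and P90 alone (-0.92, edgeR Padj = 0.0917). miR-15a-3p had 11, 26 and 41 reads at P1 and 14, 44 and 22 at P5, followed by 16, 5 and 11 at P14, then 3, 6 and 2 in the adult libraries. miR-15a-3p did not pass for P90 against P1 (log2FC -1.45, SE 0.76, edgeR Padj = 0.107), except under library totals alone (-3.66, edgeR Padj = 0.000421).

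Counted by step, the calls fell on different members. From P1 to P5, 3 of 9 members were called, beside 4.45% of all miRNAs tested, and all 3 were higher (2.72% of all tested were higher and 1.73% lower). Those 3 were miR-195a-5p, miR-497a-5p and miR-195a-3p, the members of the chromosome 11 locus, and no member of the miR-15 and miR-16 loci passed. From P5 to P14, 7 were called beside 44.4% of all: 4 were higher (18.0% of all), these being the same 3 and miR-15b-5p, and 3 were lower (26.3% of all), these being miR-15a-5p, miR-15b-3p and miR-16-1-3p.

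From P14 to P90, 6 members were called beside 59.1% of all miRNAs tested. The 3 higher members (22.4% of all) were miR-195a-5p, miR-16-5p and miR-15a-5p, and the 3 lower ones (36.7% of all) were miR-15b-5p, miR-15b-3p and miR-195a-3p. P90 against P1 called 8 beside 66.4% of all, of which 5 were higher (25.2% of all) and 3 lower (41.2% of all). The median log2FC of the 9 members in that comparison was 1.22, and that of all miRNAs tested was -0.72.

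How far adult libraries are scaled up or down set the sign of several of these values. TMM factors were 0.247 to 0.384 at P90 and 1.235 to 1.725 at the other ages. At P90 the 6 skeletal muscle miRNAs used as markers, among them miR-1a-3p, summed to 557200 to 585400 CPM of the library total, beside 239700 to 341700 at the younger ages. Most of that sum was miR-1a-3p, while miR-206-3p, miR-208b-3p and miR-499-5p had lower means at P90 than at P1 (1288 against 17650, 0.496 against 7.25 and 51.6 against 820.5 normalized CPM). The median log2FC of all miRNAs tested for P90 against P1 was -0.72 with TMM, -0.37 with RLE factors, -2.97 with library totals alone and 1.177 with upper-quartile factors. Relative to that median, miR-195a-5p lay 4.29, 4.28, 4.26 and 4.27 higher on the log2 scale in the same order. These scalings shift every miRNA of a library alike, so that distance can hardly change. With the GC trend removed, which shifts miRNAs unequally, it was 3.88, and 94.9% of the miRNAs tested had a lower log2FC, beside 96.3% with TMM. miR-16-5p lay 2.32 above the median with TMM and 2.30 with library totals, and 84.7% and 84.3% of the miRNAs tested had a lower log2FC. miR-15b-5p lay near the median under each of the library scalings, 0.05 above it with TMM, and 0.47 below it with the GC trend removed.

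**Figure D2:**
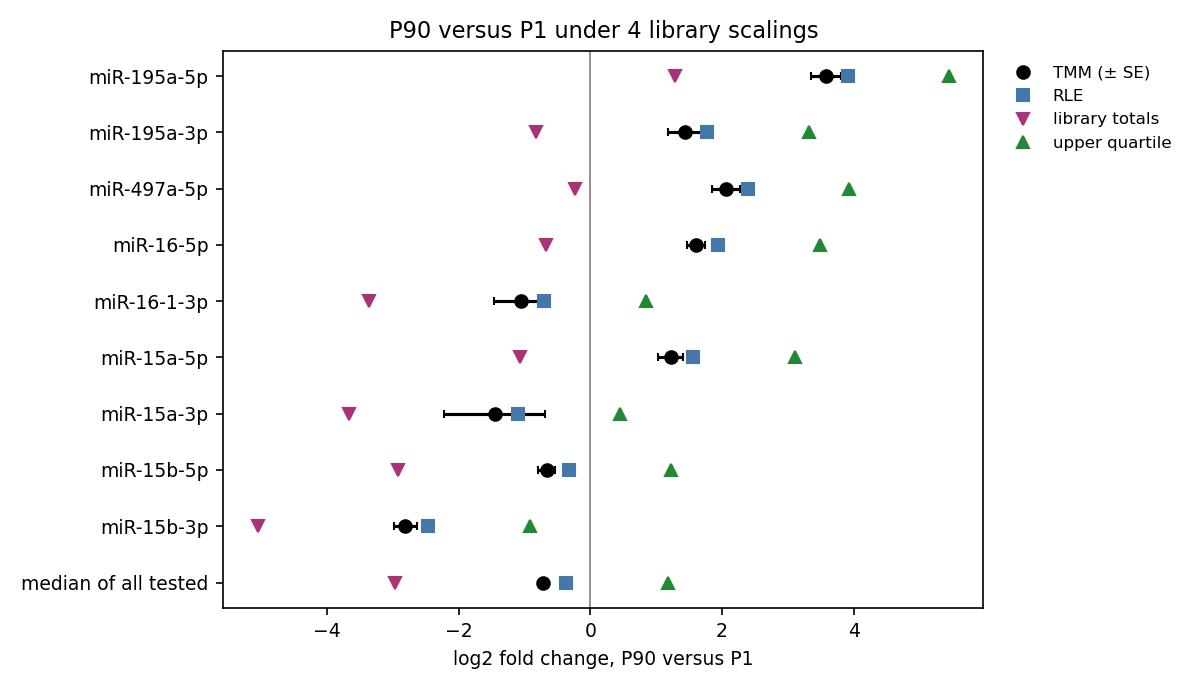
Log2FC of P90 against P1 for each of the 9 members under TMM, RLE, library totals alone and upper-quartile factors, with the median of all 809 miRNAs tested for each. The members move together with the median (-0.72, -0.37, -2.97 and 1.177), and only miR-195a-5p is above 0 and only miR-15b-3p below 0 in all 4.

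Ratios of reads within a library do not depend on scaling, and they gave the comparison of the loci directly. For 14 ratios between members the ages were compared by an exact permutation test over all 15400 partitions of the 12 libraries, with p-values adjusted over the 14. All 14 had an adjusted p under 0.05, and the smallest p this design allows is 6.49e-05. Ratios of other miRNAs were not put to this test, so the 14 have no background share beside them. Of all miRNAs tested singly, 72.4% differed across the 4 ages. Between single ages 3 libraries against 3 cannot go below 0.1, so the steps are described without a test.

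Reads of miR-195a-5p per read of miR-16-5p were higher at each age up to P14. The ratio was 0.0361, 0.0227 and 0.0315 at P1, 0.0662, 0.0743 and 0.0721 at P5, and 0.112, 0.114 and 0.110 at P14. At P90 it was 0.113, 0.103 and 0.139, which overlapped P14. The first 3 ages did not overlap each other, and the mean difference from P14 to P90 was 0.07 on the log2 scale. The ages differed (exact permutation p = 0.000519, adjusted 0.000808), and P90 exceeded P1 by 1.99 on the log2 scale.

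miR-497a-5p against miR-16-5p rose and then came back. Mean ratios were 0.0171 ± 0.00397, 0.0386 ± 0.00253, 0.0661 ± 0.00556 and 0.0234 ± 0.00380 in order of age (SD, n = 3, exact permutation p = 6.49e-05, the smallest possible, adjusted 0.000303). No neighbouring ages overlapped. P90 exceeded P1 by 0.47 on the log2 scale, and by 0.26 without replicate 2 of P1, the library with the lowest value. With the GC trend removed P90 exceeded P1 by 0.72. From P14 to P90 that removal left the log2FC of miR-497a-5p at -0.20 and took that of miR-16-5p from 1.28 to 0.85. The drop of the ratio after P14 was then smaller.

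**Figure D3:**
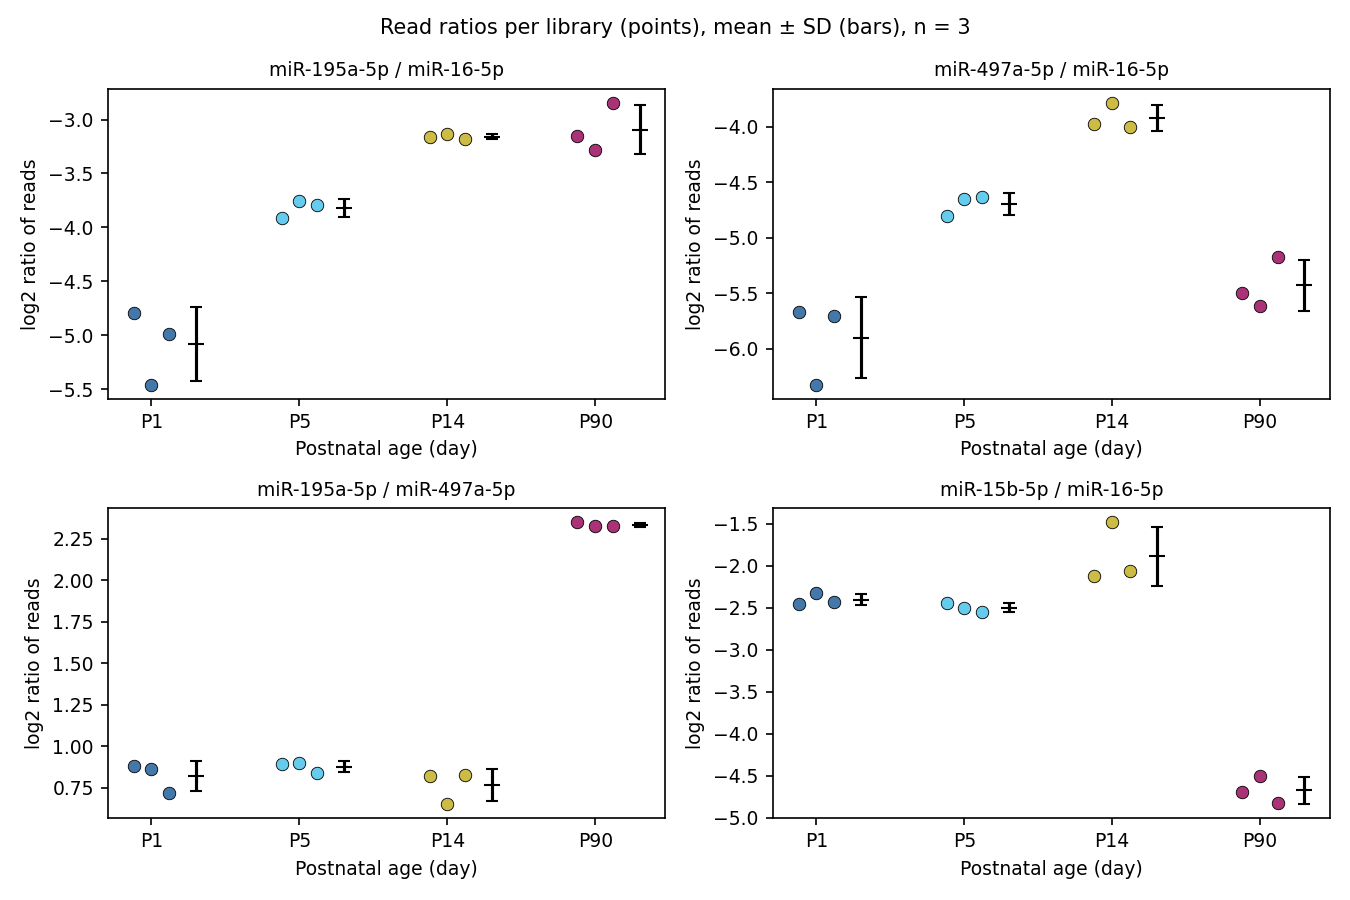
Log2 ratios of reads within each library at P1, P5, P14 and P90 (3 libraries each, with bars of mean ± SD). The ratios are miR-195a-5p, miR-497a-5p and miR-15b-5p against miR-16-5p, and miR-195a-5p against miR-497a-5p. The GC trend is not removed here. miR-195a-5p against miR-16-5p levels off after P14 at about -3.1, whereas miR-497a-5p against miR-16-5p drops from -3.92 to -5.43.

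Within the chromosome 11 locus the proportion of the arms moved little until P14 and stood apart at P90. miR-195a-5p had 1.84, 1.82 and 1.65 reads per read of miR-497a-5p at P1, and 1.86, 1.86 and 1.79 at P5. The ratio was 1.76, 1.57 and 1.77 at P14 and 5.10, 5.02 and 5.01 at P90. All 9 younger libraries fell between 1.57 and 1.86, with P14 wholly below P5, and the P90 libraries stood far above them. The ages differed (exact permutation p = 0.00513, adjusted 0.00598), and P90 exceeded P14 by 1.57 on the log2 scale. The libraries' GC trend moved the other way at P14 and P90, at 0.377 to 0.561 and -0.591 to -0.380 log2 units per 10 GC points, and miR-497a-5p has more G and C bases than miR-195a-5p, whose GC content is 42.9%. With that trend removed P90 exceeded P1 by 1.13 instead of 1.51 (exact permutation p = 0.000455). From P14 to P90, where the trend turned, its removal took the log2FC of miR-195a-5p from 1.36 to 0.70 and left that of miR-497a-5p at -0.20, so the step between the arms was smaller than 1.57.

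Ratios between arms of the miR-15 and miR-16 loci also changed. The miR-16-5p count pools reads of the miR-16-1 and miR-16-2 hairpins, so its ratios do not compare arms of a single locus. miR-15b-5p had 0.189 ± 0.00883 and 0.177 ± 0.00649 reads per read of miR-16-5p at P1 and P5, then 0.276 ± 0.0712 and 0.0394 ± 0.00441 at P14 and P90 (exact permutation p = 0.00013, adjusted 0.000455). miR-15a-5p against miR-16-5p moved far less, between a mean of 0.0413 at P1 and 0.0260 at P14 (exact permutation p = 0.000974, adjusted 0.00136). The paralogs of miR-15 also moved against each other. There were 0.219 ± 0.0157 and 0.228 ± 0.0279 reads of miR-15a-5p per read of miR-15b-5p at P1 and P5, 0.0984 ± 0.0243 by P14 and 0.808 ± 0.132 by P90 (exact permutation p = 0.000455, adjusted 0.000808). Against miR-15b-5p, miR-195a-5p went from 0.161 ± 0.0424 at P1 to 3.06 ± 0.812 at P90, the widest change of the 14 ratios (log2 difference 4.26).

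As shares of all 5p reads of the family, leaving out miR-322-5p, which has the same seed but is not a member, the loci divided as follows. The chromosome 11 locus took 3.69% ± 0.837, 8.25% ± 0.479, 12.04% ± 0.183 and 11.7% ± 1.65 at the successive ages (SD, n = 3). The share was higher at each age up to P14, and P90 overlapped P14, with miR-195a-5p making up 9.73% and miR-497a-5p 1.93% at P90. miR-16-5p took 78.3%, 75.4%, 67.7% and 82.5% at the successive ages. miR-15b-5p went from 14.8% at P1 to 18.5% at P14 and 3.25% at P90, and miR-15a-5p lay between 1.76% and 3.24% on average. The widest 95% Wilson interval of the chromosome 11 share in a single library spanned 0.506 percentage points and covers counting error only.

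**Figure D4:**
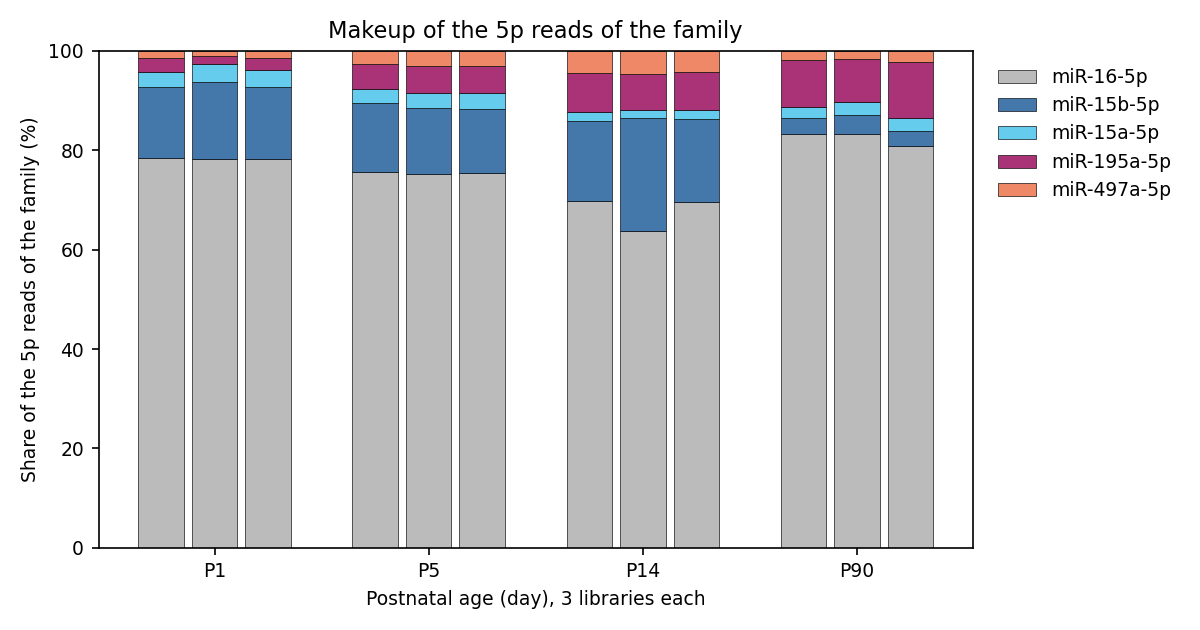
Percent of the summed reads of the 5 member arms that share the seed taken by each arm in each of the 12 libraries, ordered by age. miR-322-5p, which has the same seed but is not a member, is left out. The share of miR-195a-5p grows from a mean of 2.36% at P1 to 9.73% at P90, and the share of miR-15b-5p is smallest at P90.

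Summed over the 5 arms, the family came to 1857 ± 45.3, 2193 ± 209, 2684 ± 302 and 5359 ± 450 normalized CPM from the youngest age to the oldest. As a share of library totals the same reads were 0.293%, 0.281%, 0.412% and 0.174%, so the direction of the last step depended on the scaling. Both sums are given as descriptions with no test.

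The order of the members also changed with age. At P1 the order by mean was miR-16-5p, miR-15b-5p, miR-15a-5p, miR-195a-5p, miR-497a-5p, miR-15b-3p, miR-195a-3p, miR-16-1-3p and miR-15a-3p. Of the neighbours in that order, miR-497a-5p overlapped miR-15b-3p and miR-195a-3p overlapped miR-16-1-3p. At P90 miR-195a-5p stood in place of miR-15b-5p behind miR-16-5p, followed by miR-15b-5p, miR-15a-5p and miR-497a-5p, of which miR-15a-5p overlapped both others. Behind them came miR-195a-3p, miR-15b-3p, miR-16-1-3p and miR-15a-3p, none of which overlapped.

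The arms of a hairpin did not keep their proportion either. miR-195a had 11.3 ± 2.08, 11.9 ± 1.29 and 10.7 ± 0.971 reads of the 5p arm per read of the 3p arm up to P14, and 47.5 ± 3.89 at P90 (exact permutation p = 0.0112, adjusted 0.0119). P90 exceeded P1 by 2.08 on the log2 scale, and by 1.45 with the GC trend removed (exact permutation p = 0.00162). Its 9 younger libraries all lay between 9.57 and 13.7. From P14 to P90, removing the GC trend took the log2FC of the 5p arm from 1.36 to 0.70. That of the 3p arm went from -0.79 to -0.37, so the step between the arms was smaller than 2.15. From P5 to P14 the 5p and 3p arms had log2FC 1.09 and 0.76 with the trend removed, against 0.80 and 0.95 with TMM. miR-15b shifted earlier, from 12.4 ± 0.710 and 12.8 ± 0.432 at P1 and P5 to 37.0 ± 4.14 at P14 and 55.6 ± 6.95 at P90 (exact permutation p = 0.00026, adjusted 0.000606). In each of these hairpins the 5p arm gained on the 3p arm. With the GC trend left in, the gain came at P90 for miR-195a and from P14 for miR-15b.

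For miR-15a the proportion rose from 119 ± 64.2 at P1 to 685 ± 253 at P90 (exact permutation p = 0.0119, adjusted 0.0119), with 2 to 6 reads of the 3p arm at P90. That call was lost with the GC trend removed (log2 difference 1.43 in place of 2.42, exact permutation p = 0.0936) and with a replicate block (exact permutation p = 0.0521). miR-16-5p against miR-16-1-3p rose from 517 ± 226 to 3686 ± 2260 (exact permutation p = 0.00188, adjusted 0.00240), where the first arm also holds reads of the miR-16-2 hairpin.

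Among 250 hairpins with both arms tested, the log2 ratio of major to minor arm changed by a median of 0.05 between P1 and P90, and 53.2% changed upward. The changes of miR-15a, miR-15b and miR-195a were 2.42, 2.15 and 2.08, and 97.2%, 95.6% and 94.8% of the hairpins had a lower value. These percentages place the hairpins and are not tests.

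**Figure D5:**
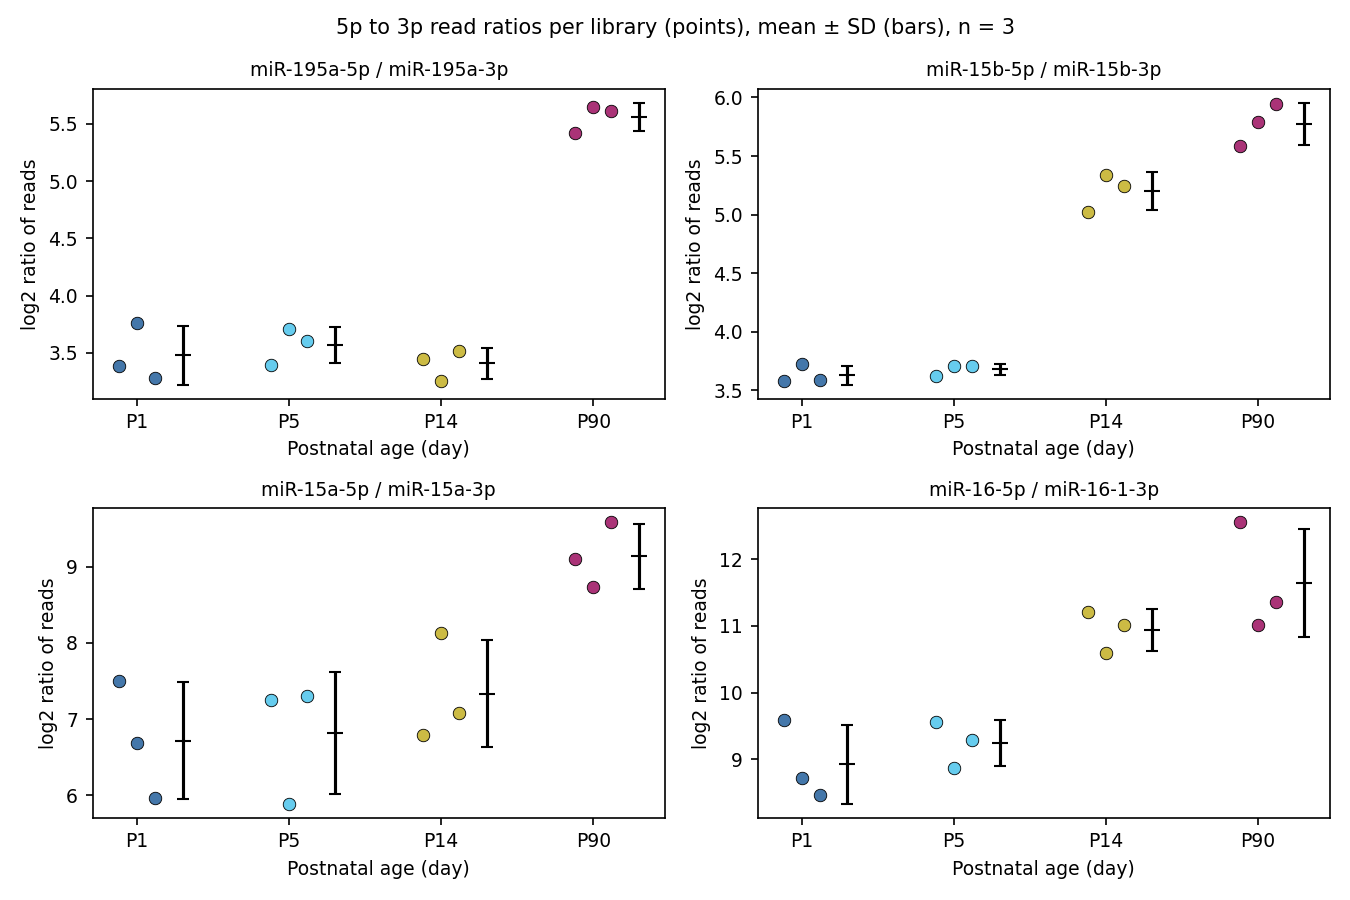
Log2 ratio of 5p to 3p reads within each library for the miR-15a, miR-15b and miR-195a hairpins and for miR-16-5p against miR-16-1-3p, at P1, P5, P14 and P90. The GC trend is not removed here. On this scale miR-195a changes mainly at P90, from a mean of 3.41 at P14 to 5.56. miR-15b has already risen from 3.68 at P5 to 5.20 at P14.

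Whole muscle also holds blood, vessels and other cells, and miRNAs that mark these moved over the ages. The 5 miRNAs marking endothelium and smooth muscle summed to 20660 to 24250, 26370 to 32300, 28230 to 34380 and 67080 to 86740 normalized CPM in order of age. The 3 of red blood cells summed to 270.5 to 307.1, 313.3 to 378.5, 152.7 to 233.7 and 263.8 to 507.9 at the same ages. The 6 of white blood cells summed to 274.5 to 485.6, 173.4 to 183.9, 218.3 to 227.1 and 322.3 to 460.0. The endothelial and smooth muscle list was highest at P90 on this scale, where miR-16-5p and miR-195a-5p were also highest, although per library total it was lowest there (21420 to 28890 CPM, beside 32380 to 51920 at the younger ages). Most of its sum was miR-143-3p, with means of 17730 normalized CPM at P1 and 64890 at P90. On the normalized scale the red blood cell list was lowest at P14, as was miR-15a-5p. Their part in the results was not tested. None of the markers on these lists was at 0 in all libraries of an age.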

How the data were processed

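Small RNA libraries of quadriceps RNA (NEXTflex kit) were made by the authors, who trimmed reads with cutadapt 1.18, aligned them to GRCm38 with Bowtie2 2.4.1 and counted them on miRBase with featureCounts 2.0.1. The deposited table holds the authors' raw counts per mature miRNA. The options for strand and for reads with several positions are not given in the sources used here.

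Groups were the 4 ages in the labels, with 3 libraries each. Counts were fitted in edgeR 4.0.16 (R 4.3.3) with TMM factors, filterByExpr and 1 mean per age over 12 libraries (quasi-likelihood test, Benjamini-Hochberg). Log2 ratios of counts had 0.5 added to each count. DESeq2 1.42.0, other scalings, no filter, a GC trend, a replicate block, leaving out 35 antisense rows and each library in turn were alternatives. For the ratios other than miR-195a-5p to miR-16-5p, the alternatives were chosen after seeing the data. The scripts were tested on simulated counts. Same-age libraries differed beyond sampling noise, so none was merged. Members and lists were chosen with earlier results of these data known. All 9 members are named, with rows of the same hairpins or the same seed beside them.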

Additional observations from a re-analysis of the deposited data

How the results depend on the processing

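The 5 counts of members called stayed within 1.5 times their value in all 104 alternatives, a bound that the furthest of them reached. These counts take no account of direction or of which members were called. Under library totals alone P90 against P14 called 9 members instead of 6. All 9 were then lower at P90, with log2FC from -0.69 for miR-15a-5p to -4.28 for miR-15b-3p, against 3 higher and 3 lower with TMM. The ratio of miR-195a-5p to miR-16-5p kept its call in every alternative that gave a p, with a log2 difference of 1.80 to 2.13 when single libraries were left out. Summed over both 5p arms of the locus the difference was 1.80, with no test. Counts without single libraries were 2 to 3 from P1 to P5, 6 to 7 from P5 to P14, 5 to 7 from P14 to P90, 7 to 8 from P1 to P90 and 8 over the 4 ages. Of 754 log2FC of members under alternatives, 682 kept direction and call, 28 lost the call, 10 gained it and 34 turned in direction. DESeq2 gave no adjusted p for miR-15a-3p in P5 against P1.

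Library totals alone turned P5 against P1 to -0.15 for miR-15a-5p, -0.30 for miR-15a-3p, -0.22 for miR-15b-5p, -0.26 for miR-15b-3p and -0.11 for miR-16-5p. They turned P90 against P14 to -0.69 for miR-15a-5p, -0.96 for miR-16-5p, -1.54 for miR-16-1-3p and -0.90 for miR-195a-5p, and P90 against P1 to -1.08 for miR-15a-5p, -0.67 for miR-16-5p, -0.83 for miR-195a-3p and -0.23 for miR-497a-5p. Upper-quartile factors turned P90 against P14 to 1.11 for miR-15a-3p, 0.079 for miR-15b-5p, 0.77 for miR-195a-3p and 1.36 for miR-497a-5p, and P90 against P1 to 0.45 for miR-15a-3p, 1.23 for miR-15b-5p and 0.84 for miR-16-1-3p. By their construction these change every miRNA of a library alike. For miR-497a-5p in P90 against P14, RLE factors and DESeq2 gave 0.16 and 0.16, and a fit of 2 ages 0.105. For miR-15a-3p the GC trend gave 0.36 in P90 against P14, and a fit of 2 ages -0.0038 in P5 against P1. For these the cause was not tested.

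Leaving out single libraries turned P5 against P1 for miR-15a-5p (-0.010 to 0.25), miR-15a-3p (-0.52 to 0.49), miR-15b-3p (-0.0062 to 0.061) and miR-16-1-3p (-0.44 to 0.047), and P90 against P14 for miR-497a-5p (-0.33 to 0.029). None of these was called. Same-numbered libraries of different ages had correlations of -0.0967 to 0.124, so the numbers do not pair them. Of 36 combinations of a library with another age, 9 correlated best with the same number. A replicate block left 3, 7, 6, 8 and 8 members called in the comparisons above, and gave p = 0.00521 (exact permutation) for miR-195a-5p to miR-16-5p. miR-15a-3p and miR-16-1-3p rest on few reads.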

Other observations

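Among other miRNAs with the seed of the 5p arms, only miR-322-5p had more than 2 reads in any library. Of the 10 rows of the table with that seed, 5 were not members. miR-322-5p, from a cluster on the X chromosome, had 217, 260, 166 and 132 normalized CPM on average at P1, P5, P14 and P90, and was lower at P90 than at P1 (log2FC -0.72, SE 0.19, edgeR Padj = 0.00364). That made it more abundant than miR-195a-5p at P1 and less abundant at P90. miR-195b reached 1 read, miR-6353 reached 2 and miR-6342 and miR-6419 had 0 in every library, which allows up to 3.

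The other passenger arms of these hairpins were scarce as well. miR-16-2-3p, from the hairpin beside miR-15b, had 3.57, 4.32 and 4.53 normalized CPM at P1 and 1.31, 1.33 and 1.83 at P90 (log2FC -1.49, SE 0.33, edgeR Padj = 0.000931). miR-497a-3p reached 13 reads in a library and miR-497b, annotated on the opposite strand of the same hairpin, reached 19. Their counts were equal in 5 of the 12 libraries, at 11 reads or fewer, and whether they come from separate reads was not tested. By contrast miR-497a-5p had at least 773 reads.

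Among 343 miRNAs with a mean of at least 10 normalized CPM, the ones whose log2 levels followed miR-195a-5p most closely over the 12 libraries were miR-126b-5p and miR-126a-3p (Pearson r = 0.978 for both), which had nearly the same counts, and miR-378c (0.966). The hairpins of miR-126a and miR-126b overlap on opposite strands of chromosome 2, and whether their counts come from separate reads was not tested. miR-126a is known from endothelial cells. The closest to miR-16-5p were miR-185-5p (0.998), miR-1839-5p (0.990) and miR-143-3p (0.988), a smooth muscle miRNA. Between members, miR-195a-5p had r = 0.885 with miR-497a-5p and 0.878 with miR-16-5p. These values are descriptions, and the libraries behind them share scaling and age.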
